A study of Mus musculus with 20 samples.

Results

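Retinal RNA of young mice given the cysteine donor N-acetylcysteine ethyl ester (NACET) was compared with that of young untreated mice. The members were chosen by their sample titles: 6 young NACET and 4 young control libraries, of 20 libraries in the series. All mice were wild-type C57BL/6J, and each library was made from polyA RNA of 1 retina of 1 mouse. Treated mice drank NACET in their water, 50 mg/kg daily, over 5 days. All 4 controls were 119 days old. NACET replicates 1 to 4 were 129 days old and NACET replicates 5 and 6 were 119 days old by title, although the batch tag of replicate 6 gives 129 days. The labels give control replicates 1 and 2 and NACET replicates 1 to 4 as male and the other 4 mice as female, whereas the methods of the study describe male mice. Among the males, treatment and age (and with it the cohort) therefore cannot be told apart. Total gene counts were 17.7 to 24.95 M per library (M, 1e+06 counts). Gnat1, the transducin subunit that marks rod photoreceptors, was at 16322 to 23119 CPM (counts per 1e+06 gene counts, with library sizes scaled by TMM) in the 10 libraries. Of the 35006 genes counted, 16588 passed the default expression filter of edgeR and were tested.

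NACET enters cells readily, loses its ester group and raises intracellular cysteine, the limiting precursor of glutathione. The transcription factor NRF2 (gene Nfe2l2) is held at a low level by KEAP1, and when KEAP1 cysteines are modified NRF2 accumulates and raises genes of glutathione synthesis, thioredoxin reduction and quinone detoxification. Interferons are secreted antiviral proteins. Type I interferon acts mainly on interferon-stimulated response elements and interferon gamma on gamma-activated sites, so that a short list of genes (Ifit, Oas, Mx and Gbp families) rises when a tissue is exposed to them.

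No gene passed an adjusted p under 0.05 in young mice: edgeR called 0 of 16588 genes (0.0%), and DESeq2 and limma-voom also called 0. At an unadjusted p under 0.05 there were 724 genes (4.36%), of which 363 were higher (2.19%) and 361 lower (2.18%) in NACET mice. The median log2 change over all genes was -0.0045, and 48.0% of genes had a change above 0. In 74 genes (0.446%) all 6 NACET libraries lay above all 4 controls, and in 61 (0.368%) all lay below. The largest influence of 1 library on the call count came from control replicate 4: without it 8 genes were called, all of which are described with the pigment epithelium below.

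The data set a limit on how large an undetected change could have been. The 95% interval of a gene's log2 change (NACET minus control) had a median half-width of 0.22, a 1.16-fold change in either direction. It was 0.39 with age in the batch tag as a covariate and 0.33 in labelled males only, and it was 0.38 with DESeq2 and 0.37 with no filter, which also took in rarer genes. The interval lay wholly within -1 and 1 for 15705 genes (94.7%) and wholly within -0.5 and 0.5 for 12547 genes (75.6%). This limit depended on expression. Among the 2094 genes with a mean of 100 CPM or more, 99.1% had intervals within 0.5 of 0, and among the 8220 genes at 10 to 100 CPM it was 97.4%. Among the 4597 genes at 1 to 10 CPM the share was 53.2%, and among the 1677 genes under 1 CPM it was 1.07%. Changes of the most abundant retinal transcripts were thus bounded far more tightly than those of rare ones. The same 10 libraries did yield calls for another contrast: the labelled sex of the mice called 13 genes (0.0784% of the genes tested), with sizes from 0.49 to 13.2 on the log2 scale. They included Xist, Tsix, the Y-linked genes Uty, Kdm5d, Ddx3y and Eif2s3y, and the X-linked genes Kdm6a, Kdm5c and Ddx3x. The smallest called change was that of 2610029G23Rik, 0.49 (SE 0.08, edgeR adjusted p 0.0365). Sex-linked genes differ between the sexes in any case, so these sizes set no detection limit for a NACET change.

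The genes of the NRF2 pathway, which the treatment was given to engage, lay close to 0. Nfe2l2 (chromosome 2, 75513570 to 75542698, mm9) had 29.6, 27.5, 25.6 and 29.7 CPM in control replicates 1 to 4, and a lowest, median and highest value of 25.5, 27.9 and 29.98 CPM in NACET mice. The ranges of the groups overlapped almost completely, and the log2 change was -0.02 (95% interval -0.16 to 0.13). Keap1 (chromosome 9, 21034174 to 21043776), which encodes the adaptor that targets NRF2 for degradation, changed by 0.02 (-0.11 to 0.15). The subunits of glutamate-cysteine ligase, the rate-limiting enzyme of glutathione synthesis, had changes of 0.02 for Gclc (-0.10 to 0.13) and 0.07 for Gclm (-0.08 to 0.22). Txnrd1, which encodes a thioredoxin reductase, had 0.02 (-0.10 to 0.15), and Srxn1, which encodes sulfiredoxin, had 0.04 (-0.13 to 0.20). For these 6 genes the intervals lay within 0.25 of 0. Of them, Nfe2l2 and Keap1 are regulators and not targets. The study proposes that NACET raises NRF2 after transcription, so the RNA of these regulators does not measure the activity of the pathway.

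Other NRF2 targets were less tightly bounded. Nqo1 (chromosome 8, 109912125 to 109927106), a quinone reductase, had 3.26, 3.16, 2.25 and 3.43 CPM in controls and 1.55 to 3.60 CPM (median 3.37) in NACET mice, a log2 change of 0.04 (-0.41 to 0.49). Hmox1 (chromosome 8, 77617490 to 77624495), the inducible heme oxygenase, had 4.00, 3.27, 2.42 and 3.47 CPM in controls and 2.90 to 4.58 CPM (median 3.61) in NACET mice, a change of 0.13 (-0.24 to 0.50). Slc7a11, the cystine transporter subunit xCT, had the widest interval of the named pathway genes, -0.93 to 0.34, and control replicate 4 alone had 14.5 CPM where the other 9 libraries had 3.78 to 7.28 CPM. Gsr, glutathione reductase, had 17.3, 15.4, 17.5 and 18.0 CPM in controls and 17.5 to 21.2 CPM (median 19.4) in NACET mice. Its change of 0.19 (0.02 to 0.35) had an unadjusted p of 0.0270 and an edgeR adjusted p of 1.00.

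Counted over the whole NRF2 list, 24 of 37 tested genes were higher and 13 lower, with a median log2 change of 0.031 beside -0.0045 for all genes. Of the 37, 2 had an unadjusted p under 0.05, Gsr and Gsta4, both higher, beside 2.19% of all genes higher at that p. The intervals of 29 of the 37 lay within 0.5 of 0. Gsta4, a glutathione transferase, was 13.7 to 19.7 CPM in controls and 14.4 to 47.8 CPM in NACET mice, and its 3 highest libraries, NACET replicates 3, 4 and 5, were also the 3 with the most corneal and conjunctival epithelium RNA (described below). Whether that RNA set the level of Gsta4 was not tested. Glutathione synthesis and cysteine handling had 13 of 22 genes higher (median 0.014), glutathione peroxidases and transferases 13 of 25 (0.014), thioredoxins and peroxiredoxins 12 of 21 (0.030), and metallothionein and iron handling genes 10 of 16 (0.024). In the last of these lists Mt1, a metal-binding metallothionein, had 25.3, 27.0, 30.6 and 35.3 CPM in controls and 32.5 to 43.7 CPM (median 35.1) in NACET mice, a change of 0.31 (SE 0.10, unadjusted p 0.00926, edgeR adjusted p 1.00).

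**Figure D1:**
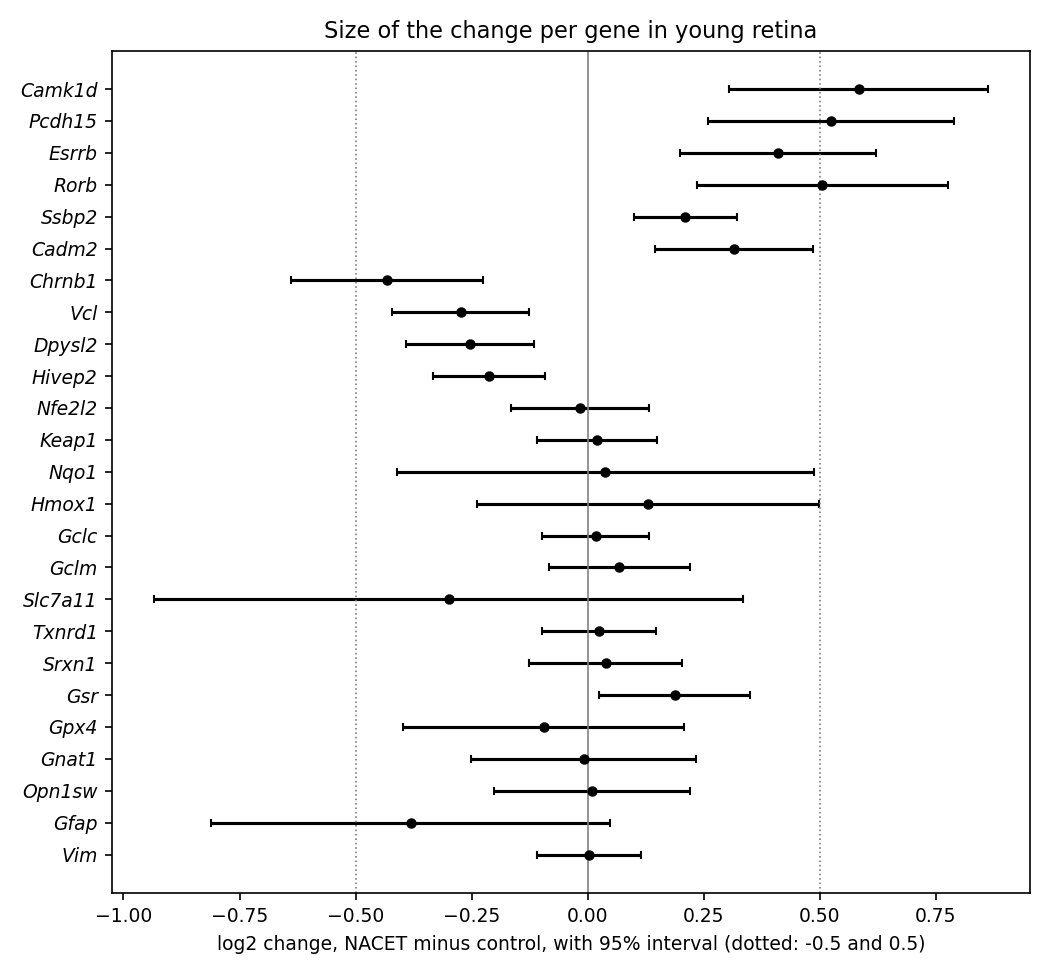
Log2 change (NACET minus control, x axis) with its 95% interval for 25 genes of young retina: the genes with small p at the top, NRF2 and glutathione genes in the middle and photoreceptor and glial genes at the bottom. Nfe2l2, Keap1, Gclc, Gclm, Txnrd1 and Srxn1 lie within 0.25 of 0, and Slc7a11 has the widest interval, -0.93 to 0.34.

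The genes with the smallest p are given as a description, since they were picked for it, and all had an edgeR adjusted p of 1.00. Camk1d (chromosome 2, 5214503 to 5635561), a calcium and calmodulin-dependent kinase, had 235, 242, 235 and 220 CPM in the controls. In NACET mice its lowest, median and highest values were 269, 332 and 496 CPM, the highest in replicate 1. Every NACET library lay above every control, and the log2 change was 0.58 (SE 0.13, interval 0.30 to 0.86). Pcdh15, a cadherin of photoreceptor calyceal processes and of hair cell tip links, had 255, 295, 380 and 345 CPM in controls and 393 to 553 CPM (median 438) in NACET mice. Its groups also did not overlap, though NACET replicate 4 and control replicate 3 differed by little, and the change was 0.52 (SE 0.12, interval 0.26 to 0.79). The gene symbol has 2 entries in the annotation, so no position is given. Esrrb (chromosome 12, 87702067 to 87862578), an estrogen-related nuclear receptor known for its role in rod energy metabolism, had 511, 435, 397 and 467 CPM in controls and 534 to 733 CPM (median 572) in NACET mice, a change of 0.41 (SE 0.10, interval 0.20 to 0.62). NACET replicate 1 held the highest value of all 3 genes. Over 29 alternative fits the change stayed above 0 and ranged from 0.37 to 0.69 for Camk1d, 0.27 to 0.77 for Pcdh15 and 0.34 to 0.49 for Esrrb. For Camk1d the low end came with age in the title as a covariate.

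The other 7 of the 10 genes of smallest p among those higher in NACET mice included Rorb (chromosome 19, 19005095 to 19185686), a nuclear receptor needed for rod fate, with 219, 183, 160 and 172 CPM in controls and 181 to 305 CPM (median 270) in NACET mice. NACET replicate 2, at 181 CPM, lay within the control range and the other 5 above it. Ssbp2, a single-strand DNA-binding cofactor, differed by less, 0.21 (SE 0.05), but its 6 NACET libraries were close together at 84.3 to 87.1 CPM, above 67.4 to 78.3 CPM in controls. Cadm2, a synaptic adhesion molecule, had a change of 0.32 (SE 0.08) with no overlap between groups, 171 to 200 CPM against 206 to 271 CPM. The mitochondrially encoded genes mt-Tc and mt-Nd6 had changes of 1.27 and 0.35, and since reads were counted without strand they cannot be separated from transcripts of the opposite strand. Wfikkn2 and Galntl4 had changes of 0.59 and 0.48.

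Among genes lower in NACET mice, Chrnb1 (chromosome 11, 69597538 to 69609445), an acetylcholine receptor subunit, had the smallest p. It had 9.93, 11.7, 12.3 and 11.8 CPM in controls and 7.45 to 9.60 CPM (median 8.503) in NACET mice, all below the controls, with a change of -0.43 (SE 0.10, interval -0.64 to -0.23). Vcl (chromosome 14, 21748655 to 21852895), vinculin of cell adhesions, had 29.4 to 33.5 CPM in controls and 24.3 to 28.1 CPM in NACET mice. Dpysl2, an axon guidance protein of the collapsin response family, had 80.4 to 90.1 CPM against 66.3 to 82.2 CPM, with NACET replicate 2 within the control range. Their changes were -0.27 (SE 0.07) and -0.25 (SE 0.06). 2210408I21Rik, Utp14b, Gm12680, Kcnt2, Hivep2 and Nhsl2 completed the lower genes, with changes from -0.86 (Kcnt2) to -0.21 (Hivep2), and in each the groups did not overlap. The last, Hba-a2, a hemoglobin gene nearly identical to Hba-a1, had a change of -1.21.

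**Figure D2:**
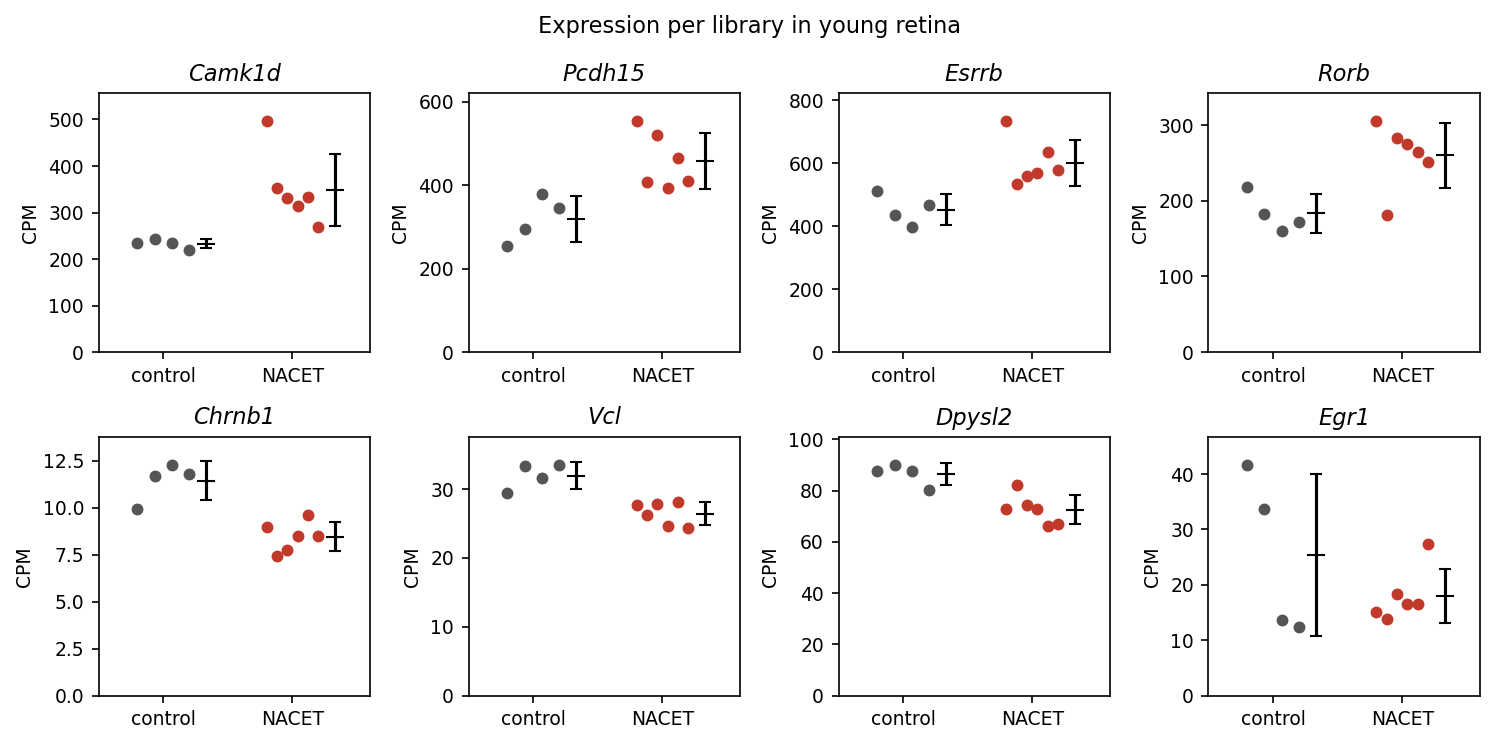
Expression in CPM (y axis, from 0) of 8 genes in the 4 control (grey) and 6 NACET (red) libraries of young retina, in replicate order from left to right, with the mean and SD beside each group. Camk1d, Pcdh15, Esrrb, Chrnb1 and Vcl have no overlap between groups, and the high Egr1 values in controls belong to replicates 1 and 2.

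Gene families moved little as groups. In 48 lists with at least 5 tested genes, covering retinal cell types, stress responses, metabolism and synapses, the median change was mostly within 0.1 of 0. The rod phototransduction genes were lower in 25 of 28 cases with a median of -0.043, and none had an unadjusted p under 0.05. Gnat1, rod transducin, changed by -0.01 (SE 0.11). Mitochondrial complex I subunits were lower in 31 of 37 cases (median -0.059), complexes II to V in 26 of 39 (-0.035) and glycolysis genes in 13 of 22 (-0.061). Ndufa4 shows how far these rested on a library: it had 380 CPM in control replicate 1 and 182 to 270 CPM in the other 9. Without control replicate 1 the median of complex I was 0.078 and that of the rod list 0.010, so both changed sign. Control replicate 1 also had the lowest limma sample weight, 0.398. Because these are whole retinas, fewer cells of a type and less RNA per cell cannot be told apart.

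A few lists leaned in a direction by little. Ionotropic and metabotropic glutamate receptor genes were lower in 22 of 25 cases with a median of -0.094, which ranged from -0.15 to -0.034 over 29 alternatives. The smallest p among them belonged to Grid1, a delta-type receptor, at -0.16 (SE 0.08, unadjusted p 0.0712). Amacrine cell genes were higher in 16 of 17 cases with a median of 0.069 (0.044 to 0.11 over the alternatives). They included Th, tyrosine hydroxylase of dopaminergic amacrine cells, with 1.39 to 2.60 CPM in controls and 1.76 to 3.61 CPM in NACET mice (change 0.44, SE 0.21), and Gad1, a GABA-synthesizing enzyme, at 0.14 (SE 0.08). Chaperones of the endoplasmic reticulum and the unfolded protein response were higher in 21 of 29 cases (median 0.041, 0.015 to 0.085 over the alternatives), with no unadjusted p under 0.05. Genes of the ATF4 and amino acid response were higher in 25 of 33 cases (0.063, but -0.037 in labelled females alone), and 2 had an unadjusted p under 0.05. These were Aldh18a1, which makes proline precursors, at 0.26 (SE 0.08), and Psat1, of serine synthesis, at 0.17 (SE 0.06). Beside these, 48.0% of all genes were higher, and 4.36% of all genes had an unadjusted p under 0.05. Members of a list share regulation and libraries, so these counts carry no p.

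Most of the other lists were close to the background. Cone phototransduction had 8 of 15 genes higher (median 0.00020), although Arr3, cone arrestin, had 367, 434, 527 and 564 CPM in controls and 557 to 692 CPM (median 608) in NACET mice, a change of 0.39 (SE 0.11, unadjusted p 0.00413). Photoreceptor transcription factors (0.026), Muller glia (0.014), ganglion cells (-0.011), bipolar cells (0.0064), horizontal cells (-0.014), reactive gliosis (-0.016), microglia and macrophages (-0.023), and endothelium with pericytes (-0.065) had medians within 0.1 of 0. So did cytosolic heat shock (0.0012), mitochondrial proteostasis (0.0011), proteasome (0.0078), cholesterol synthesis (0.0025), intraflagellar transport (-0.0063), GABA and glycine receptors (0.022), synaptic vesicle release (-0.020), circadian clock (-0.036), p53 and senescence (0.0068), chemokines and cytokines (-0.018), complement (-0.093) and muscle (0.028). Of these, complement had 11 of 15 genes lower and kept its sign over 29 alternatives (-0.27 to -0.0071). Circadian clock had 14 of 20 lower and also kept its sign (-0.059 to -0.026). The lists that hold the 3 genes with the smallest p among higher genes did not move with them: calmodulin-dependent kinases and phosphatases had 10 of 19 genes higher (0.016), Usher and stereocilia-like proteins 6 of 10 (0.020) and estrogen-related and steroid nuclear receptors 8 of 15 (0.012). Families taken by gene name gave the same picture, with 59 of 60 families of at least 20 tested genes within 0.1 of 0. The exception was the SNORA small nucleolar RNA genes at -0.20, and the Rpl and Rps ribosomal protein genes had -0.085 and -0.065, medians that turned positive when certain libraries were left out.

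**Figure D3:**
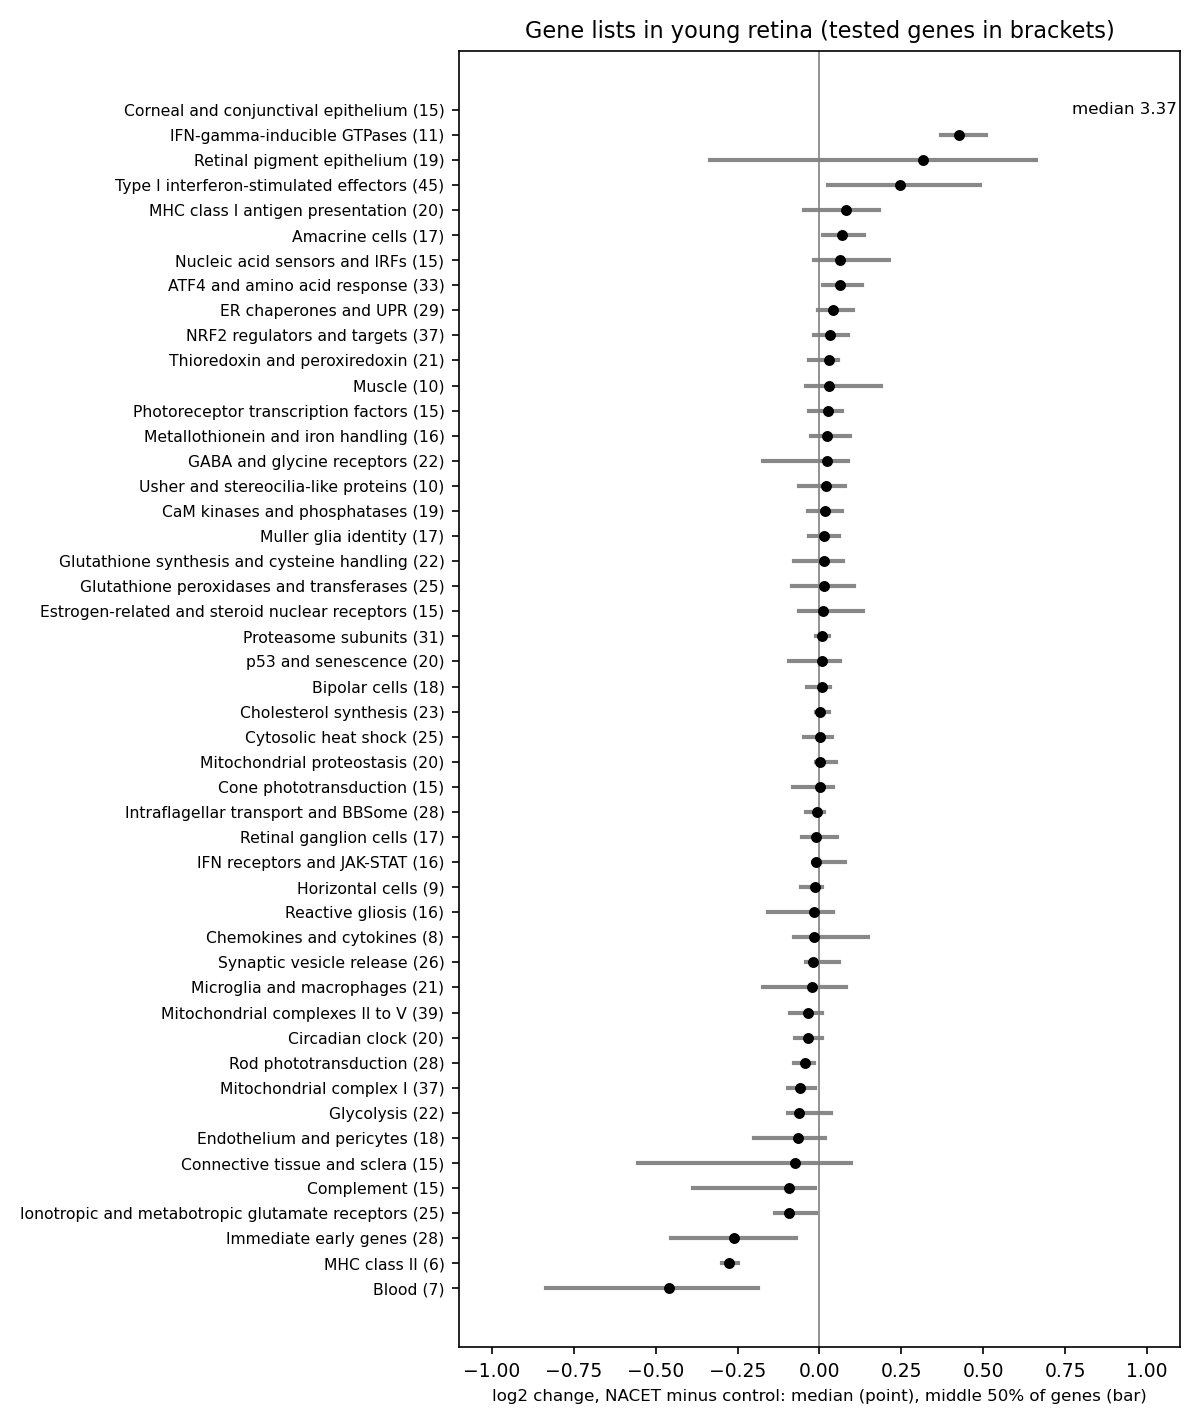
Median log2 change (NACET minus control, x axis) of 48 gene lists in young retina (points), with bars over the middle 50% of each list's genes and the number of tested genes in brackets. Most medians lie within 0.1 of 0, and the corneal and conjunctival epithelium list, at 3.37 over the genes that passed the filter, lies off the axis.

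Immediate early genes, which are transcribed within minutes of neuronal or stress stimulation, had a median of -0.26. Of 28 tested, 24 were lower and 4 higher, where 48.0% of all genes were higher. At an unadjusted p under 0.05, 8 were lower and 1, Ier5 (0.23, SE 0.10), was higher, beside 2.18% and 2.19% of all genes. The median kept its sign over the alternatives and ranged from -0.36 in labelled males only to -0.096 in labelled females only. The list's median deviation from the mean of the libraries (log2) was 0.14 and 0.44 in control replicates 1 and 2, the labelled males. It was -0.067 and 0.022 in control replicates 3 and 4, within the -0.25 to 0.035 of NACET mice. Arc (chromosome 15, 74499513 to 74503000), which regulates synaptic strength, had 3.26, 3.00, 1.37 and 2.04 CPM in controls and 1.11 to 1.71 CPM (median 1.48) in NACET mice. Egr1, a zinc finger transcription factor, had 41.7, 33.6, 13.7 and 12.4 CPM in controls and 13.8 to 27.4 CPM (median 16.6) in NACET mice. The high values were those of control replicates 1 and 2, the labelled males, while control replicates 3 and 4 lay below all 6 NACET libraries. Over all libraries its change was -0.50 (SE 0.30, unadjusted p 0.119). In labelled males alone Egr1 was the only gene called (-1.24, SE 0.14, edgeR adjusted p 0.0458). Whether NACET acted differently by sex was tested as an interaction, an alternative added after seeing the data: it called 0 genes (0.0%), its smallest edgeR adjusted p was 0.173, and 458 genes had an unadjusted p under 0.05.

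The largest differences between the groups were in genes of tissues other than the retina. Krt5, a basal epithelial keratin, had 6.09, 1.06, 3.52 and 3.66 CPM in controls and 2.27, 17.9, 60.6, 152, 73.2 and 1.102 CPM in NACET replicates 1 to 6. NACET replicates 1 and 6 lay within the control range, and replicates 2 to 5 above it. The summed level of the 24 genes of the corneal and conjunctival epithelium list was 25.3 to 55.5 CPM in controls and 23.9 to 717 CPM in NACET mice. Of these 24 genes, 15 passed the expression filter, which such genes could pass through the NACET libraries alone, and 12 passed it without NACET replicate 3. The 15 had a median log2 change of 3.37. All 15 were higher at an unadjusted p under 0.05, beside 2.19% of all genes, although the filter favours such genes. None was called, and with no filter the median over all 24 was 3.31. Krt12, the keratin that defines corneal epithelium, followed Krt5 in NACET replicates 2, 4 and 5 (18.5, 152 and 91.3 CPM) but was at 1.15 CPM in replicate 3. The crystallin-based lens list, of which 2 of 23 genes were tested, summed to 21.7 to 28.3 CPM in controls and 20.0 to 27.7 CPM in NACET mice, most of it Cryab. The other tested gene, Crybb3, was at 0.463 to 0.534 CPM in controls and 0.538 to 1.03 CPM in NACET mice, with no overlap (change 0.62, SE 0.24, unadjusted p 0.0201).

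Retinal pigment epithelium genes differed between libraries of the control group as well. Their summed level was 226, 206, 198 and 506 CPM in control replicates 1 to 4, and 241 to 372 CPM (median 320) in NACET mice. Control replicate 4 thus had more than any NACET library, and the other 3 controls less. Rpe65, the retinoid isomerase that defines this epithelium, had 4.54, 3.00, 3.35 and 15.6 CPM in controls and 9.51 to 22.3 CPM (median 15.5) in NACET mice, a log2 change of 1.30 (SE 0.41, unadjusted p 0.00683). Over the 19 genes the median was 0.32, with 11 higher and 8 lower. Without control replicate 4 it was 1.07, and the 8 genes then called were Rpe65 (2.17, SE 0.27, edgeR adjusted p 0.0260), Trf, Rgr, Lrat, Cldn1, Ttr, Rdh5 and Mfrp, several of which serve the visual retinoid cycle. Of these, Mfrp changed sign, from -0.09 with all libraries to 1.27. Control replicate 4 also carried 99.2 CPM of Gpx3 and 12.4 CPM of Sod3, antioxidant genes at 4.06 to 11.0 CPM and 0.801 to 1.87 CPM in the other 9 libraries. Connective tissue and sclera genes had a median of -0.076, and 0.26 without control replicate 4. Blood genes had -0.46 over 7 tested genes, with Hba-a1 (4.65 CPM in control replicate 2, 0.846 to 2.36 CPM elsewhere) and the other globins lower in NACET mice and Bpgm near 0. With no filter the median was 0.0095 over 13 genes, and with DESeq2 0.0065 over 13 genes.

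**Figure D4:**
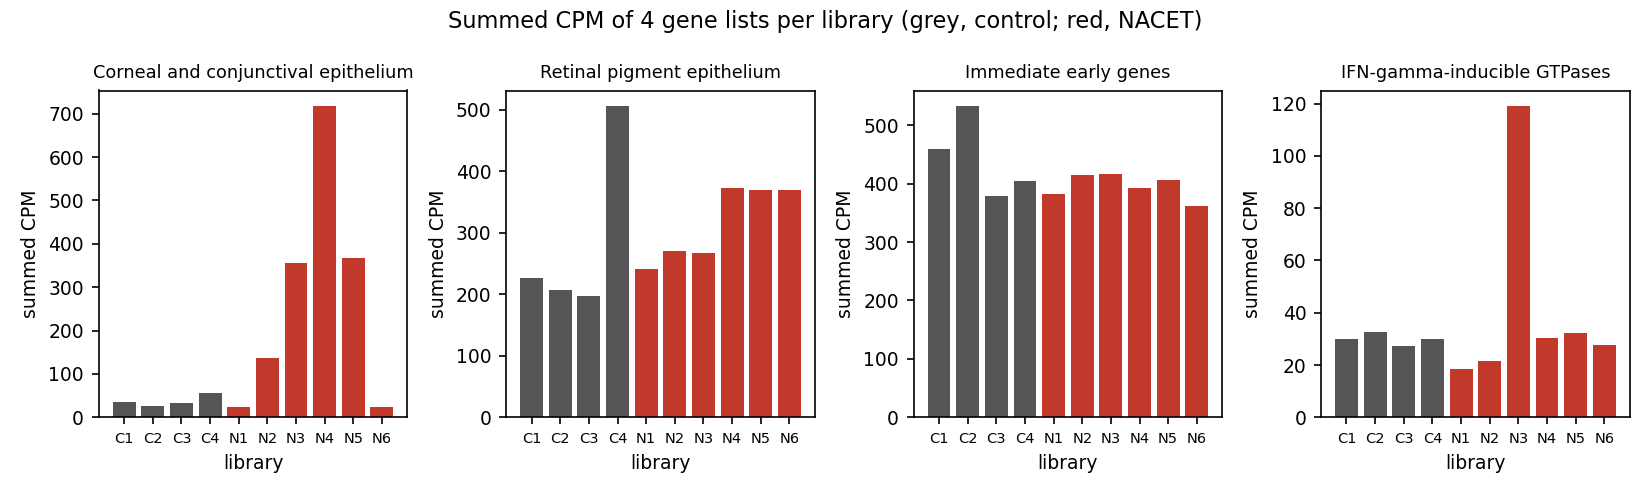
Summed CPM of 4 gene lists (y axes, from 0) in each library of young retina, C1 to C4 for control and N1 to N6 for NACET replicates. The epithelium list is high in N2 to N5, the pigment epithelium list is highest in C4, the immediate early list is highest in C2, and the interferon-inducible GTPases are high in N3 alone.

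In 1 NACET mouse, replicate 3, interferon-stimulated genes stood far above the other 9 young libraries. The genes are shown first by the promoter letters that many of them share. Of the type I effector genes tested, 35 had a promoter window in RefSeq (GRCm38.p6, 250 bases before to 50 after a start, matched by symbol). The letters GAAANNGAAA, the core of the interferon-stimulated response element, were found on either strand in 13 of these 35 genes (37.1%), against 3.99% of all 27025 genes with a window. They were found in all 7 of the interferon-inducible GTPase genes that had a window. The letters TTCNNNGAA of the gamma-activated site were found in 7 of 35 and 4 of 7, against 9.55% of all genes. The 2 motifs overlapped each other in 24 of 32851 windows. A match in letters is a description and not a shown binding site. Runs of 30 bases around a match are given for genes that were high in NACET replicate 3, 5′ to 3′ on the strand of the gene, with the match in capitals (the response element in its reverse complement in the first 5, the gamma-activated site in the last).
Ifit1, chr19:34640775-34640804, plus strand: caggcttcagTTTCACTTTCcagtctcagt
Ifit1, chr19:34640794-34640823, plus strand: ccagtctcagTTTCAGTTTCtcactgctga
Ifit3, chr19:34583363-34583392, plus strand: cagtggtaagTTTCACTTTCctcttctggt
Gbp2, chr3:142620594-142620623, plus strand: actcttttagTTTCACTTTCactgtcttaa
Gbp7, chr3:142530273-142530302, plus strand: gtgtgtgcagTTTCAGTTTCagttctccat
Gbp7, chr3:142530220-142530249, plus strand: tccgttttctTTCCAGGAAaagcagaagct

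Ifit1 (chromosome 19, 34715361 to 34724499, mm9), an RNA-binding antiviral protein and the gene of the first pair of runs, had 31.2 CPM in NACET replicate 3 and 1.93 to 4.00 CPM in the other 9 libraries. Its neighbour Ifit3 had 41.6 CPM against 5.79 to 8.24 CPM. Usp18, which removes ISG15 and dampens receptor signalling, had 11.1 CPM against 0.859 to 1.86 CPM. Replicate 3 stood apart in all 3 genes, and the other 5 NACET libraries did not. Rsad2, the antiviral enzyme viperin, had 7.88 CPM against 0.826 to 1.28 CPM, Mx2 had 4.75 CPM against 0.220 to 0.688 CPM, and Parp14 had 28.9 CPM against 4.68 to 8.12 CPM. Oasl1 departed from this pattern, with 1.57 CPM in replicate 3 and 2.09 CPM in NACET replicate 4. Guanylate-binding proteins, GTPases of cell-autonomous immunity, moved with them: Gbp2 had 13.5 CPM against 2.14 to 4.08 CPM, Gbp3 18.1 against 1.34 to 3.97 CPM and Gbp7 21.0 against 3.27 to 6.11 CPM.

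Counted over the lists, the excess of replicate 3 (its log2 CPM minus the median of the other 9) had a median of 1.29 over 45 type I effectors, with 35 highest in that library, and of 2.13 over 11 interferon-inducible GTPases, with 11 highest. Over all tested genes, 9.84% were highest in replicate 3. Nucleic acid sensors and interferon regulatory factors had a median excess of 0.40, with 9 of 15 highest. Ifih1, the RNA sensor MDA5, was at 17.4 CPM against 3.12 to 5.13 CPM, while Irf3, which is present before any stimulus, was at 74.9 CPM against 65.7 to 74.9 CPM. The receptor and JAK-STAT list had a median excess of 0.074. Across all interferon and antigen presentation lists, 49 of 113 tested genes were at least 2-fold above the median of the other libraries in replicate 3, and 0 to 4 were in each of the other 9 libraries. Over all genes (16588 tested), 202 were so raised in replicate 3. In NACET replicate 4 it was 197 genes and in control replicate 4 it was 166, so replicate 3 stood apart in these lists and not in the total.

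Antigen presentation moved less. MHC class I presentation genes had a median excess of 0.36, with 8 of 20 highest in replicate 3. H2-D1 was at 46.3 CPM, within the 32.7 to 53.9 CPM of the other libraries, and Tapbp, tapasin, was below all of them (52.0 against 61.4 to 77.6 CPM). MHC class II genes had -0.032 with 0 of 6 highest. Microglia and macrophage genes had -0.17 with 1 of 21 highest, and their summed level of 69.6 CPM lay within the 65.6 to 97.3 CPM of the other 9. Cx3cr1, the fractalkine receptor of microglia, was at 2.95 CPM against 2.41 to 4.21 CPM. None of the 16 lymphocyte markers passed the filter, with 21 counts in replicate 3 and 10 to 33 in the others, and the T cell marker Cd3e had 0 counts in it. None of the 21 interferon ligand genes passed either: replicate 3 had 0 counts over all of them, where 3 counts would be 0.138 CPM, and the other libraries had 0 or 1.

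**Figure D5:**
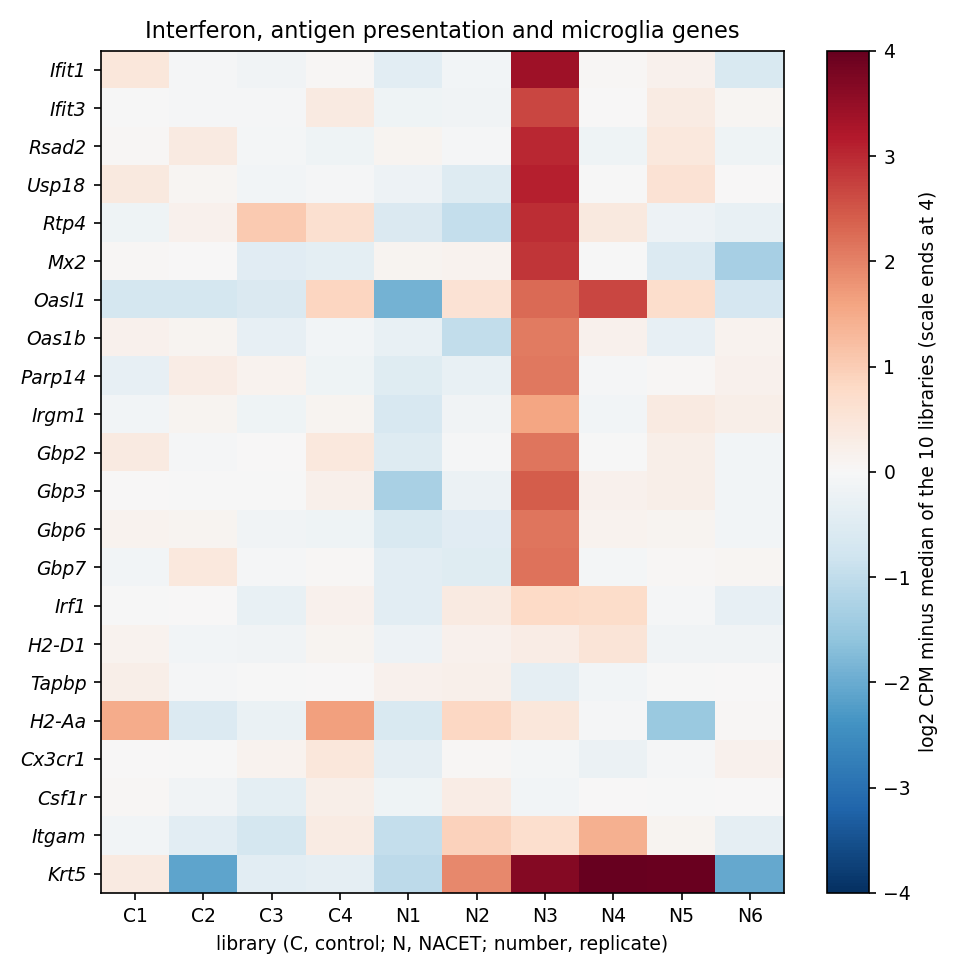
Log2 CPM minus the median of the 10 young libraries (colour, ending at 4 in either direction) for 22 genes (rows) in the 4 control (C) and 6 NACET (N) libraries. Column N3 is high from Ifit1 down to Gbp7, close to 0 for Cx3cr1 and Csf1r, and high for Krt5 together with N4 and N5.

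The corneal and conjunctival epithelium list was also raised in replicate 3 (355 CPM summed), beside 717 CPM in replicate 4 and 367 CPM in replicate 5. In those 2 libraries Ifit1 was at 3.04 and 3.31 CPM and Gbp2 at 3.01 and 3.60 CPM, within the range of the remaining libraries. Krt19 (10.2 CPM against 0.107 to 0.573 CPM) and Krt7 (11.0 against 0.132 to 0.913 CPM), keratins of simple epithelia, and Cbr2 (28.4 against 0.178 to 4.57 CPM), a carbonyl reductase known from airway epithelium, were high in replicate 3 alone. So was AC113316.1, annotated as a miRNA gene (chromosome 5, 147072579 to 147072660), at 79.9 CPM against 1.81 to 5.26 CPM. The part of this other epithelial RNA in the interferon genes was not tested.

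For 3 of the 6 interferon and antigen presentation lists, the direction between the groups turned when this library was left out: type I effectors, interferon-inducible GTPases, and sensors with regulatory factors. With it, type I effectors had a median change of 0.25 with 36 of 45 genes higher in NACET mice, 2 of them and 1 lower gene at an unadjusted p under 0.05. Of all genes, 2.19% were higher and 2.18% lower at that p. Without replicate 3 the median was -0.090 with 13 of 45 higher. For the interferon-inducible GTPases the values were 0.43 with 11 of 11 higher, and -0.22 with 1 of 11 higher without it. The MHC class I list went from 0.080 to 0.0093, and the MHC class II list, with 0 of 6 genes higher, from -0.28 to -0.31. Sensors and regulatory factors went from 11 to 6 of 15 genes higher (median 0.063 with replicate 3 and -0.019 without it), and the receptor and JAK-STAT list had 6 of 16 higher both with and without it (-0.012). Ifit1, with a log2 change of 1.25 (SE 0.75, unadjusted p 0.119), and the other genes of the list were not called with it, and no gene was called without it.

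Genes called under NACET in the old mice of the series were looked up in young mice, which share no library with them. The old controls were 4 mice of 668 days, and of the 6 old NACET mice 2 each were 668, 581 and 574 days old, all labelled male. The old groups thus differed in age as well as treatment, and the young groups held both sexes. Of the 90 genes called there (0.543% of those tested), 66 had the same direction in young mice. The same count over all tested genes is not given here, so the 66 cannot be set against a background. The median change of the 90 in the direction seen in old mice was 0.067 in young mice and 0.38 in old mice, in which they were chosen for being called. For 63 of the 90 the 95% interval in young mice excluded the size seen in old mice, among them Hspa8, a constitutive HSP70 chaperone (0.43 in old, 0.04 in young with an interval of -0.20 to 0.27), and Xbp1, of the unfolded protein response (0.42 in old, 0.05 in young, -0.17 to 0.27). This count takes the old size as exact, although it has an error of its own (SE 0.06 for Hspa8). It also includes epithelial genes of opposite direction, such as Krt5. Fos (-0.86 in old, -0.39 in young, -0.78 to -0.0064) and Sik1 (-0.72 in old, -0.46 in young, -0.89 to -0.024) had the same direction at both ages. At an unadjusted p under 0.05 in young mice, 11 of the 90 had the same direction and 10 the opposite. Over all tested genes, 4.36% had such a p in young mice (2.19% higher and 2.18% lower). The 10 included genes of the corneal and conjunctival epithelium described above, Krt5 (-4.61 in old, 3.88 in young) and Krt12 (-4.64 in old, 3.61 in young). The keratins Krt6a (-4.52 in old, 3.25 in young) and Krt6b (-4.13 in old, 2.89 in young) were also among them. So were Dsp, Emp1, Lypd2, Asprv1 and 2310043J07Rik, each lower in old and higher in young NACET mice. Mkl1 was the reverse (0.24 in old, -0.17 in young). The genes named in this paragraph were named after their values were seen, and the difference between ages was not tested.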

How the data were processed

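Raw read counts per gene were deposited for each library. The authors aligned reads to mm9 with TopHat2 2.1.0 and counted them with HTSeq 0.11.2 without strand; the gene annotation is not given in the sources used here. Rows naming no gene (no feature, 14.1% to 19.5% in young libraries; ambiguous; not unique; an unnamed row, at most 0.00218%) were left out of library sizes and tests. Young libraries were compared with edgeR 4.0.16 in R 4.3.3: default expression filter, TMM normalization, quasi-likelihood test, Benjamini-Hochberg adjustment, threshold 0.05. The standard error is the absolute log2 change over the root of F, and the 95% interval uses the t distribution. CPM are counts per 1e+06 gene counts after scaling library sizes by TMM factors, and log2 CPM used a prior count of 1. The fit was tested on simulated data. Library pairs all differed by more than counting noise, so none was merged; p-values measure the spread between these mice. Of 1113 list genes in 52 lists, 1083 matched by symbol, 17 by another symbol, 8 by a RefSeq synonym, and 5 were not found. Positions are from GENCODE M1 (mm9), in which 98.2% of tested genes had 1 match.

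The members, lists and tests were chosen with earlier results of these data known. Named genes are the 10 of smallest p in each direction, genes called in an alternative fit with few calls, the NRF2 and marker genes, for each list its 2 smallest p and 2 highest means, and the genes of largest excess in NACET replicate 3. Further genes (Tsix, Ier5, Ndufa4 and other list members) were named after their values were seen. Alternatives covered normalization (RLE, upper quartile), DESeq2 1.42.0, limma-voom 3.58.1 with sample weights, filters, sex, age, leaving out each library and a replicate block. The same replicate numbers did not pair the samples: correlations of same-numbered deviations were 0.13, -0.039, 0.059 and 0.12. Covariates for epithelium and pigment epithelium, the fit of replicates 1 to 4 without a block and the interaction with sex were added after seeing the data.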

Additional observations from a re-analysis of the deposited data

Results flagged for a closer look

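Within each group, a library was singled out where its gap to the nearest other library was a large share of the whole range of the group (above the 95% critical value of Dixon's test). Of 192 groups examined (named genes and list levels in either group), 24 (12.5%) held such a library. Chance flags about 1 in 20, but this share cannot be read against it: 14 of the 24 were interferon genes and lists in NACET replicate 3, which were chosen with the excess of that library known, and the genes and lists are correlated.

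Many were interferon-stimulated genes in NACET replicate 3: Ifit1 at 31.2 CPM, Ifit3 at 41.6, Parp14 at 28.9, Gbp7 at 21.0, Gbp6 at 14.1, Gbp2 at 13.5, Usp18 at 11.1, Rsad2 at 7.88, Mx2 at 4.75, Oas1b at 4.15 and Rtp4 at 4.10 CPM. The same library was far from the other NACET libraries in 3 list levels, the median deviation from the mean of the libraries in log2 CPM: 1.89 for the interferon-inducible GTPases, 1.15 for type I effectors and 0.37 for sensors and regulatory factors.

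In control replicate 4, Ifit3 (8.24 CPM), Gbp3 (3.84 CPM) and Oasl1 (0.556 CPM) lay above the other 3 controls, which were close together. Those had 6.26 to 6.35, 3.31 to 3.36 and 0.158 to 0.176 CPM. The levels of control replicate 4 were under those of NACET replicate 3 for each of the 3 genes. In control replicate 2 the receptor and JAK-STAT list had a level of -0.086. In NACET replicate 2, Rorb (181 CPM), Nqo1 (1.55 CPM) and mt-Tc (2.46 CPM) lay below the other NACET libraries, and the cytosolic heat shock list had a level of 0.21, above them. The glutathione peroxidase and transferase list was at 0.16 in NACET replicate 4, and the GABA and glycine receptor list at -0.16 in NACET replicate 1.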

How the results depend on the processing

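The call count was 0 in 24 of 29 alternatives. It was 1 in labelled males only (Egr1), 1 in labelled females only (Capn11), 6 with the pigment epithelium level as a covariate, and 0 to 8 when each library was left out, with 8 without control replicate 4. The 6 were Colec12, Lrat, Olfml2a, Rgr, Rpe65 and Ttr. Their covariate was the summed level of the pigment epithelium list, which itself holds genes such as Rpe65. With a replicate block over replicates 1 to 4 the call count was 2 (1600029D21Rik and Upk1b), and 0 in the same libraries without the block, although the numbers did not pair the mice and 2 of 4 numbers correlated best with themselves. Genes at an unadjusted p under 0.05 numbered 224 with age in the batch tag as a covariate, 1169 with limma-voom, 1154 with no filter and 531 to 1210 over the libraries left out (1210 without control replicate 1). The median half-width was 0.38 with DESeq2, 0.39 with the batch tag, 0.33 in labelled males and 0.37 with no filter. Mfrp, at -0.09 over all libraries, ranged from -0.38 to 1.27 when each was left out and was called at 1.27 without control replicate 4. The sex count was 26 with DESeq2 and 8 to 14 over the libraries left out (8 without NACET replicate 5).

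Of 1381 list medians over the alternatives, 28 moved by more than the spread between libraries. In labelled females only they were -0.037 for ATF4, 1.62 for epithelium, -0.12 for horizontal cells, -0.062 for MHC class I, 0.097 for gliosis and -0.088 for p53. In labelled males only they were 0.14 for ATF4, 0.22 for connective tissue, -0.091 for GABA receptors, 0.049 for the JAK-STAT list and 0.048 for p53. With the epithelium level as a covariate they were -0.49 for connective tissue, -0.080 for epithelium (the list that the covariate was made from), -0.26 for the GTPases, -0.062 for MHC class I and -0.13 for gliosis. MHC class I was -0.082 in 119-day mice, -0.082 with the batch tag and -0.083 with age in the title. The batch tag gave -0.051 for calmodulin-dependent kinases and -0.93 for MHC class II, and limma-voom -0.044 for p53. Blood was 0.0065 with DESeq2 and 0.0095 with no filter. Over the libraries left out the medians were -0.21 to 0.26 for connective tissue, 0.023 to 1.07 for pigment epithelium, -0.049 to 0.036 for synaptic vesicle release and -0.055 to 0.028 for p53. Against the 4 controls, the excess of NACET replicate 3 was 0.029 for the JAK-STAT list (0.032 to 0.076 over the libraries left out) and 0.31 for the sensors. The causes were not tested. With 4 and 6 mice, rare transcripts were the ones least bounded.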

Other observations

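In principal components of the 10 young libraries, the first axis held 27.2% of the variance and was led by epithelial genes (10 of its top 20 were on the corneal and conjunctival list), and the second held 18.3% and was led by Xist and Y-linked genes. NACET and control libraries differed by 19.9 on the first axis (two-sided exact permutation p 0.148 over 210 regroupings, adjusted p 0.443 over 3 axes). The smallest p that 4 against 6 libraries allow is 0.00476. The means of the 2 groups took up 12.7% of the summed variance of all genes. Any split of the 10 libraries into 2 groups takes up part of the variance. The share for other splits was not computed, so 12.7% cannot be read as a share due to NACET. By gene length, the median change in 5 bins of equal size by exonic length lay between -0.025 and 0.012.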
